A study of Mus musculus with 10 samples.

Results

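Metabolic nuclear receptors are transcription factors that switch fuel-handling genes on or off in response to fatty acids, retinoids, thyroid hormone or nutrient and exercise signals. A list of 10 such genes was followed in the gastrocnemius, a hindlimb muscle, namely Ppara, Ppard and Pparg, Rxra, Rxrb and Rxrg, Esrrg, Nr4a1 and Nr4a3, and Thra. They were taken by symbol from the 21098 genes of the count table. Of the 10 receptors, 5 could be measured, and of these Ppara and Esrrg were lower in mice treated with an antisense oligonucleotide against miR-22. Ppard, Rxra and Thra were not called at the level of the gene. Within Ppard, and between the 2 alternative ends of Thra, however, upstream and distal counts moved in opposite directions. A shift toward distal counts was seen over many genes. The ratio of distal to upstream counts was higher in all 5 ASO libraries than in all 5 CTRL libraries in 45.7% of 2273 genes.

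The peroxisome proliferator-activated receptors (PPARs) bind DNA as heterodimers with a retinoid X receptor (RXR). PPARα, from Ppara, and PPARδ, from Ppard, drive fatty acid uptake and oxidation in muscle, whereas PPARγ, from Pparg, is best known from adipocytes. Estrogen-related receptor γ, from Esrrg, is an orphan receptor that is abundant in slow oxidative fibers and activates mitochondrial and slow fiber genes together with the coactivator PGC-1α. Nr4a1 and Nr4a3 encode orphan receptors that are induced within hours by exercise and adrenergic signals. Thyroid hormone receptor α, from Thra, carries most of the thyroid hormone response of skeletal muscle. Its gene also gives a splice variant, TRα2, which does not bind the hormone.

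All mice were male wild-type animals, C57BL/6J in the labels and C57BL/6JBomTac in the methods of the study, made obese by a high-fat diet (DIO mice). By the labels the diet began at 9 weeks of age and ran for 9 weeks before treatment, and by the methods it went on during treatment. The ASO group received 10 mg/kg of the anti-miR-22 antisense oligonucleotide, labelled RES-010, under the skin once a week for 14 weeks, and the control group (CTRL) received 0.9% saline on the same schedule. The series design puts the mice at 30 weeks of age, which is less than these periods add up to. The control solution holds no oligonucleotide, so an effect of miR-22 inhibition and an effect of any such oligonucleotide cannot be told apart here. Poly(A) RNA of the whole muscle was sequenced from 5 mice per group. In the body weights that the study lists for DIO mice, the ASO group was heavier on average on the first day. The lightest CTRL mice were then under every ASO mouse. Which of the weighed mice each library came from is not stated, and the part of starting weight in the results was not tested.

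The deposited values are unnormalized counts of read pairs on segments of at most 500 bp, taken from the ends of annotated 3′UTRs. Library totals were between 1606909 and 2116720 counts in CTRL and between 2239186 and 2632560 with the ASO, so every ASO library was deeper. Levels are given as counts scaled to one common library total, with TMM factors (CPM), where a count of 3 corresponds to between 1.252 and 1.770 CPM and marks the floor set by counting error. The summed level of the 17 skeletal muscle fiber markers was between 54897 and 105933 CPM in CTRL and between 110500 and 183757 CPM with the ASO, and 3 of them (Tnnt3, Mylpf and Mb) were listed at 0. In bulk muscle, fewer cells of a type and less RNA per cell cannot be told apart. The mature miR-22 is not counted in the table, so the target itself offered no check of the labels.

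The libraries of the groups differed in where along the 3′UTR their counts fell. Over 2273 genes with a distal segment and upstream segments clear of it, the log2 ratio of distal to upstream counts was higher with the ASO by a median of 1.14, and in 45.7% of them all 5 ASO libraries lay above all 5 CTRL libraries. Taken over 1575 genes whose segments are at least 1000 bp apart, the median log2 ratio per library was 0.40, 0.49, 0.00, −0.16 and −0.44 in CTRL replicates 1 to 5 and 1.18, 1.20, 1.69, 1.43 and 1.43 in ASO replicates 1 to 5. The groups did not overlap on this measure. Of the receptors counted on more than 1 segment, Thra and Ppard shifted the same way and Ppara, with few counts, did not, as given for each.

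The other 5 receptors had too few counts for any statement on their level. Segments that overlap one another leave few bases to which a read pair can be assigned alone, and these are the segments of Pparg, Rxrb, Rxrg, Nr4a1 and Nr4a3. Pparg had 3 segments without a base of their own, Nr4a1 had 2 identical segments, and Rxrg had 4 segments with 2 such bases, and all of these genes were listed at 0 in all 10 libraries. Rxrb had 4 segments with 4 bases of their own and 7 counts in all, of which CTRL replicate 4 held 4, ASO replicate 2 held 2 and ASO replicate 4 held 1. Nr4a3 had 2 segments with 4 bases of their own and a count of 1, in CTRL replicate 3. A value of 0 therefore says nothing about whether these genes were transcribed. RXRγ from Rxrg, which is enriched in skeletal muscle, and the exercise-induced Nr4a1 and Nr4a3 remain unmeasured for this reason.

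The oligonucleotide is directed against miR-22, whose guide strand miR-22-3p recognizes messenger RNAs mainly through its seed, bases 2 to 8. The mature sequence is shown because the sites that follow are read against it. It is the RefSeq sequence of mmu-miR-22-3p (GRCm38.p6 chr11:75463772-75463793, plus strand), with the seed in capitals.
miR-22-3p: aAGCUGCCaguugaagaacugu
The heptamer GGCAGCT, which pairs with this seed, was searched on the transcript strand only of the longest annotated 3′UTR of each receptor. It was found once each in Ppara, Rxra and Thra and was not found in the other 7 receptors. The 3 matches are shown on GRCm39, 5′ to 3′ on the plus strand, with the heptamer in capitals, since they are the places in these receptors where the letters of miR-22 pairing occur.
Ppara, chr15:85686316-85686337: taggcccctcctttGGCAGCTc
Rxra, chr2:27651934-27651955: accacagggcctgtGGCAGCTg
Thra, chr11:98661113-98661134: gctgttaggttggtGGCAGCTg
In none of the 3 is the heptamer followed by the A that would face the first base of miR-22-3p. Of all 20968 genes with an annotated 3′UTR, 16.7% hold the heptamer in the longest one. Among 3′UTRs of similar length, the share was 16.6% for that of Ppara (1561 bases), 29.0% for that of Rxra (3630 bases) and 22.7% for that of Thra (2573 bases), so matches of this kind are common. The Ppara match is the only one inside a counted segment, and 4.97% of the 28349 distinct segments of 500 bp hold the heptamer. A match is a string of letters and not a shown binding site. Of the 3 genes that hold it, Ppara was called lower, and Rxra and Thra were not called.

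Ppara, the receptor that drives fatty acid oxidation under fasting and lipid load, gave the largest fold change of the 5 measured receptors. Its level was 26.4, 4.66, 12.4, 29.5 and 43.3 CPM in CTRL replicates 1 to 5 and 0.966, 1.27, 0.846, 4.59 and 2.83 CPM in ASO replicates 1 to 5. The groups did not overlap, but they came close, since ASO replicate 4 at 4.59 CPM lay just under CTRL replicate 2 at 4.66 CPM. All 5 ASO libraries were below all 5 CTRL libraries in 13.4% of the 7813 genes tested. Means were 23.2 ± 15.1 CPM in CTRL and 2.10 ± 1.604 CPM with the ASO (SD, n = 5 each), an 11.1-fold lower level. This is a log2 fold change, ASO over CTRL, of −3.41 with an SE of 0.61 (95% interval −4.61 to −2.22, Benjamini-Hochberg adjusted p = 0.0018 in the quasi-likelihood test of edgeR). The counts behind it are small, with 56, 10, 25, 50 and 77 in CTRL and 2, 3, 2, 11 and 6 with the ASO. ASO replicates 1, 2 and 3 are at or under the floor of 3 counts, so the size of this difference is not fixed. A two-sided exact permutation test on log2 CPM gave p = 0.0079, the smallest value that 5 against 5 libraries allow.

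All 3 counted Ppara segments were lower in ASO libraries. They lie in the 3′UTR on the plus strand of chromosome 15, at 85685460 to 85685949, 85685865 to 85686364 and 85686521 to 85687020 (GRCm39), and drew 67, 47 and 104 counts in CTRL against 7, 5 and 12 with the ASO. The most distal of them ends 47 bases before the annotated end of the gene, and there CTRL means were 10.9 ± 5.35 CPM against 1.05 ± 0.964 CPM with the ASO (SD, n = 5 each), without overlap. None of the 3 held enough counts to be tested alone. The log2 ratio of distal to upstream Ppara counts differed by −0.25 between ASO and CTRL means, at the 7.13th percentile of the 2273 genes, and ran from −2.81 to 2.32 among ASO libraries. The second of them carries the heptamer shown above. Within CTRL, Ppara was lowest in replicate 2, the library with the highest distal index, and highest in replicate 5, the library with the lowest, and the part of this property in the result was not tested. All 3 segments lie over an exon of Cdpf1 on the opposite strand, and the strand setting of the counting is not given in the sources used here. Cdpf1 itself, counted elsewhere on the chromosome, was at 41.0 ± 7.36 CPM in CTRL and 54.1 ± 7.77 CPM with the ASO (SD, n = 5 each), which was not past the threshold (log2 fold change 0.40, adjusted p = 0.079, edgeR's quasi-likelihood test).

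Ppard, the gene of the PPAR that prevails in muscle, was not called. Its level was 79.7, 75.1, 77.6, 93.8 and 94.9 CPM in CTRL and 103, 93.5, 92.2, 99.8 and 106 CPM with the ASO. The groups overlapped, with CTRL replicates 4 and 5 inside the range of the ASO libraries. The log2 fold change was 0.23 with an SE of 0.12 (95% interval −0.0023 to 0.47, adjusted p = 0.16, edgeR's quasi-likelihood test). A two-sided exact permutation test on log2 CPM gave an unadjusted p = 0.048 for Ppard. Set against Ppard in the same library, Ppara had a count ratio of 0.333, 0.0650, 0.162, 0.317 and 0.457 in CTRL and 0.0117, 0.0159, 0.0114, 0.0480 and 0.0290 with the ASO. This ratio does not depend on the scaling of the libraries, and its groups did not overlap. The log2 ratio was lower by 3.48 on average with the ASO (two-sided exact permutation p = 0.0079, adjusted p = 0.011 over 4 ratios computed).

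Both parts of the Ppard 3′UTR that could be counted separately did change, in opposite directions. The upstream segment (17:28518824 to 28519109, plus strand, directly after the stop codon) was at 21.7, 15.4, 27.2, 21.8 and 37.6 CPM in CTRL and 16.4, 13.2, 8.04, 8.35 and 6.60 CPM with the ASO. It fell by 1.20 on the log2 scale (SE 0.30, adjusted p = 0.0070, edgeR's quasi-likelihood test over 10652 segments), and the groups overlapped, since CTRL replicate 2 lay under ASO replicate 1. Distal counts (17:28519949 to 28520448, at the end of the gene) were 58.0, 59.7, 50.4, 72.0 and 57.3 CPM in CTRL and 86.9, 80.3, 84.2, 91.4 and 99.0 CPM with the ASO, without overlap. They rose by 0.61 on the log2 scale (SE 0.14, adjusted p = 0.0040, edgeR's quasi-likelihood test). Fitted among the most distal segments of all genes only, which changes the scaling, the same segment was at 0.34 and was not called (adjusted p = 0.090 by edgeR). Over all segments tested, 24.7% were called lower and 16.0% higher, so such calls are frequent. The log2 ratio of distal to upstream Ppard counts was higher with the ASO by 1.81, which is the 73.4th percentile of the 2273 genes in which this ratio was computed. The distal segment also lies over an exon of the unnamed gene Gm65835 on the opposite strand.

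Rxra, the broadly expressed heterodimer partner of the PPARs and of thyroid hormone receptors, had the highest level of the 5 measured receptors. It was at 281, 358, 245, 299 and 275 CPM in CTRL and 385, 416, 280, 274 and 482 CPM with the ASO. The groups overlapped, with ASO replicates 3 and 4 among the CTRL values. A log2 fold change of 0.33 with an SE of 0.18 was not past the threshold (95% interval −0.02 to 0.69, adjusted p = 0.18, edgeR's quasi-likelihood test). The two-sided exact permutation test on log2 CPM gave p = 0.13 for Rxra. All of its counts fell on 1 segment (2:27652470 to 27652969, plus strand), because the other 2 are identical to each other. That segment lies 361 bases before the end of the gene, and the heptamer in the Rxra 3′UTR is outside it.

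**Figure D1:**
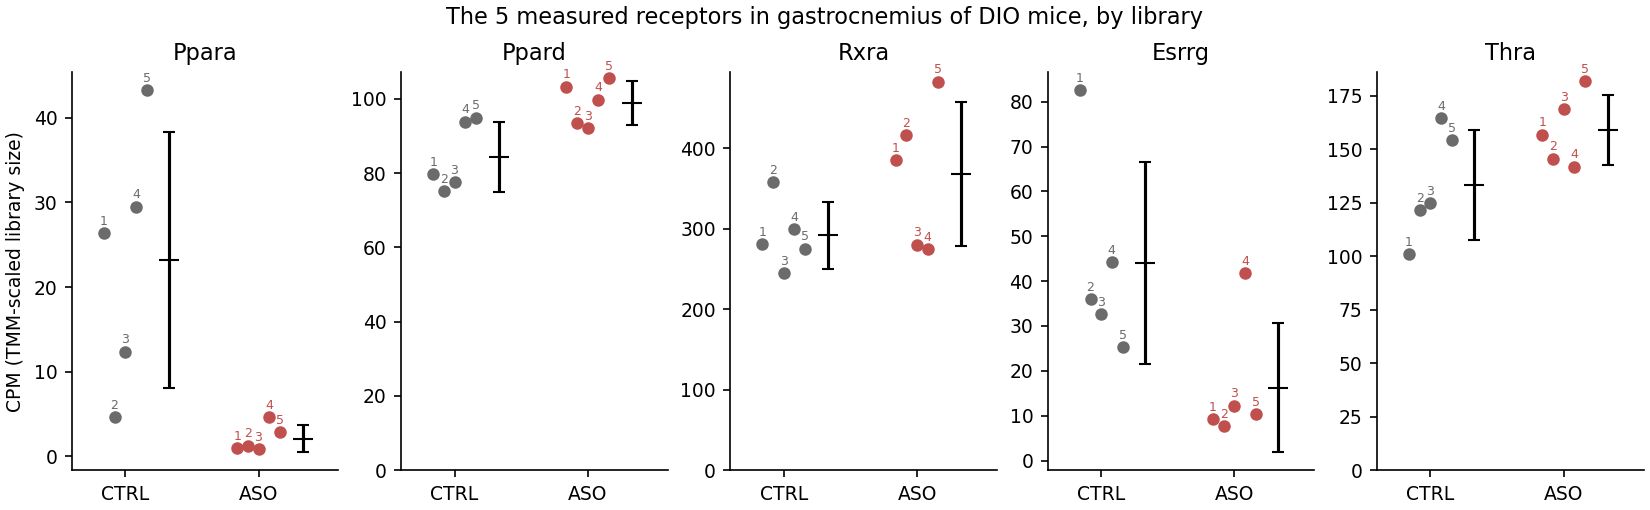
Each panel plots 1 receptor, with CPM for the TMM-scaled library size on a linear y axis and the 5 CTRL and 5 ASO libraries as points numbered by replicate, beside the mean and SD of each group. The 5 ASO libraries of Ppara lie between 0.846 and 4.59 CPM, under all CTRL libraries, whereas Esrrg overlaps through ASO replicate 4 at 41.7 CPM.

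Esrrg, the estrogen-related receptor of oxidative fibers, was lower in 4 of the 5 ASO libraries than in any CTRL library. Its level was 82.5, 35.9, 32.6, 44.3 and 25.3 CPM in CTRL and 9.17, 7.65, 12.3, 41.7 and 10.4 CPM with the ASO. ASO replicate 4 stood apart at 41.7 CPM and fell among the CTRL values, so the groups overlapped. Means were 44.1 ± 22.5 CPM and 16.2 ± 14.4 CPM (SD, n = 5 each), a 2.72-fold lower level. The log2 fold change was −1.43 with an SE of 0.47 (95% interval −2.35 to −0.52, adjusted p = 0.036, edgeR's quasi-likelihood test), and the two-sided exact permutation test on log2 CPM gave p = 0.032. Leaving out ASO replicate 1, 2, 3 or 5 or CTRL replicate 1 or 4 ended the call, with adjusted p-values from the same edgeR test between 0.065 and 0.093. The log2 fold change ranged from −2.14 without ASO replicate 4 to −1.07 without CTRL replicate 1. Every count lies on 1 segment (1:187946084 to 187946583, plus strand) that ends 499 bases before the end of the gene, and the more distal segments overlap each other and drew none. A distal to upstream ratio could therefore not be computed for Esrrg. Over 2273 genes this log2 ratio was higher with the ASO by a median of 1.14, and the part of that shift in the Esrrg result was not tested.

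Within each group, but not between the groups, the libraries highest in Esrrg were also those highest in slow fiber genes. Myh7, the slow myosin heavy chain, and Myl2, the slow regulatory light chain, are shown beside it and were chosen after their values were seen. Myh7 was at 63.7, 6.99, 6.42, 22.4 and 0 CPM in CTRL and 0, 0, 42.3, 268 and 9.90 CPM with the ASO. Myl2 was at 525, 99.8, 67.2, 201 and 11.2 CPM in CTRL and 1.45, 8.92, 529, 2022 and 376 CPM with the ASO. Within CTRL, the order of the 5 libraries is the same for Esrrg, Myh7 and Myl2, from replicate 1 down through 4, 2 and 3 to 5. Within the ASO group, replicate 4 was the highest and replicate 3 the next for all 3 genes. At like levels of Myl2, Esrrg was 12.3 CPM in ASO replicate 3 and 82.5 CPM in CTRL replicate 1. Neither slow fiber gene was called between the groups (adjusted p = 0.35 and 0.34, edgeR's quasi-likelihood test), and their part in the Esrrg result was not tested.

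**Figure D2:**
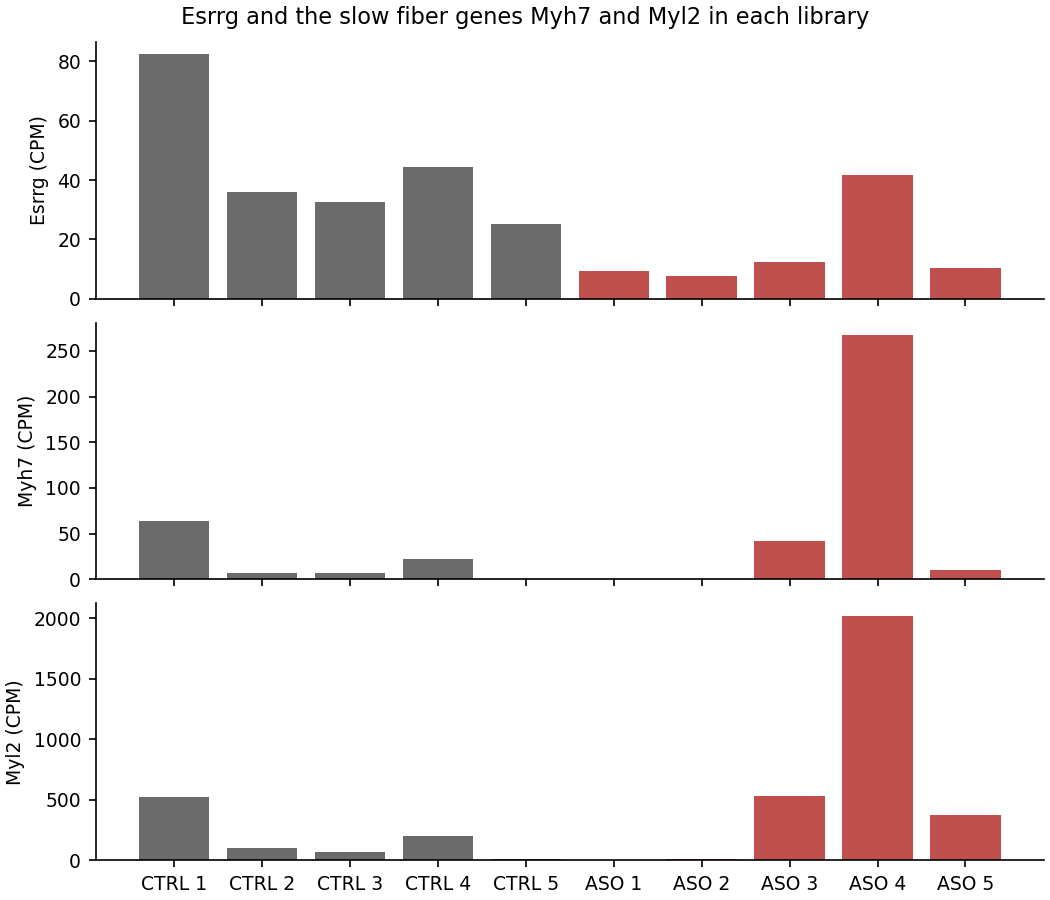
Bars give CPM for the TMM-scaled library size of Esrrg, Myh7 and Myl2 in each of the 10 libraries, gray for CTRL and red for ASO, on linear axes from 0. ASO replicate 4 is highest of its group in all 3 panels, at 41.7, 268 and 2022 CPM, and CTRL replicate 1 is highest of its own group at 82.5, 63.7 and 525 CPM.

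Esrra, another estrogen-related receptor, was at most at 1.41 CPM in any library and was not tested. Its 15 counts in all allow no statement on whether it was transcribed. Ppargc1a, the gene of PGC-1α, was at 60.9 ± 16.7 CPM in CTRL and 59.4 ± 12.1 CPM with the ASO (SD, n = 5 each). The difference was −0.04 on the log2 scale (95% interval −0.44 to 0.37, adjusted p = 0.92, edgeR's quasi-likelihood test), and the sign changed with the scaling. No change in the coactivator that PPARs and Esrrg share was thus detectable, within that interval.

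Thra was not called as a gene and had opposite differences at its 2 alternative ends. The gene as a whole was at 101, 122, 125, 165 and 154 CPM in CTRL and 157, 146, 169, 142 and 182 CPM with the ASO, and the groups overlapped. A log2 fold change of 0.26 with an SE of 0.15 was not past the threshold (95% interval −0.04 to 0.55, adjusted p = 0.22, edgeR's quasi-likelihood test). The two-sided exact permutation test on log2 CPM gave p = 0.087 for the gene as a whole. The transcript that ends upstream has a coding length of 410 codons and corresponds to TRα1, the hormone-binding receptor. The transcript that continues to the distal exon has 492 codons and corresponds to TRα2.

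On the TRα1 end (11:98655438 to 98655937, plus strand), levels were 23.6, 22.8, 46.9, 62.0 and 56.2 CPM in CTRL and 9.17, 13.2, 6.34, 7.51 and 4.72 CPM with the ASO. Every ASO library was below every CTRL library. The mean fell from 42.3 ± 18.2 CPM to 8.18 ± 3.23 CPM (SD, n = 5 each), which is 5.17-fold lower. On the log2 scale it fell by 2.32 (SE 0.35, adjusted p = 2.7e-04, edgeR's quasi-likelihood test over segments). On the distal TRα2-type exon (11:98659352 to 98659832, plus strand), levels were 77.3, 98.9, 78.1, 103 and 98.3 CPM in CTRL and 148, 133, 162, 134 and 177 CPM with the ASO. Here every ASO library was above every CTRL library, and the log2 level rose by 0.77 (SE 0.15, adjusted p = 0.0015, edgeR's quasi-likelihood test over segments). Fitted among the most distal segments of all genes only, this segment was at 0.49 (adjusted p = 0.030 by edgeR). The latter segment follows the TRα2 stop codon and lies 2092 bases before the end of the transcript, and the heptamer of Thra is farther downstream.

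**Figure D3:**
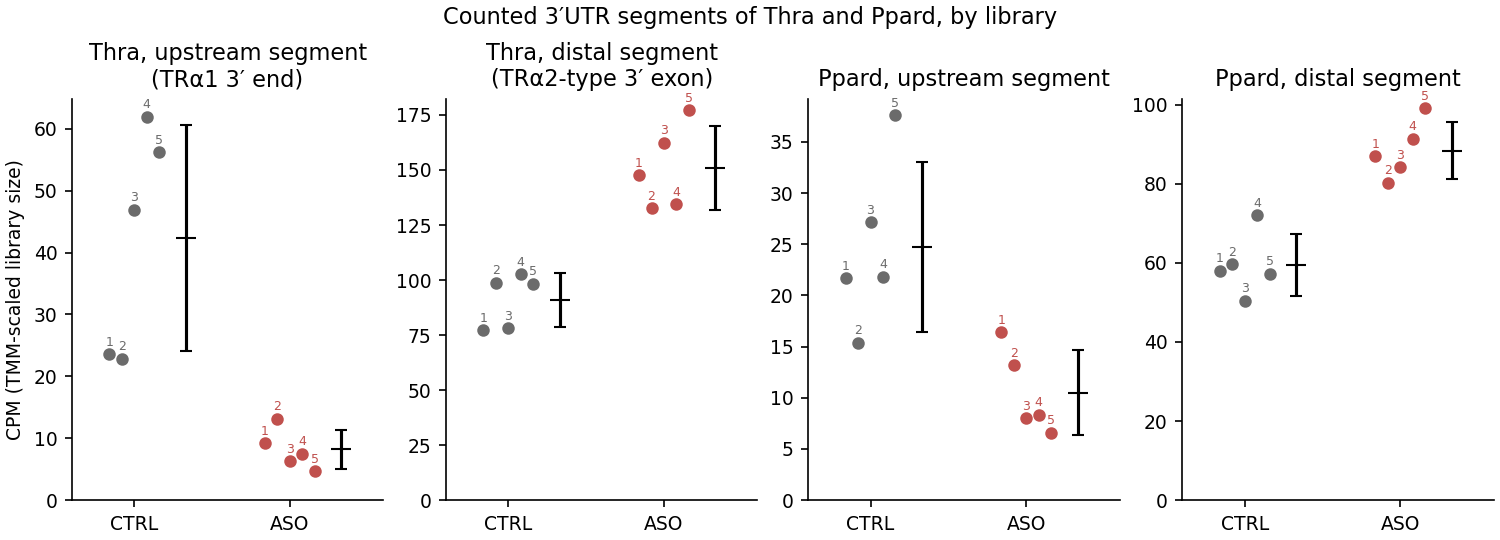
Panels plot the counted 3′UTR segments of Thra and Ppard, with CPM for the TMM-scaled library size on linear y axes from 0, points for the 5 CTRL and 5 ASO libraries numbered by replicate, and the mean and SD beside them. Both upstream segments are lower with the ASO on average (8.18 against 42.3 CPM in Thra and 10.5 against 24.7 CPM in Ppard), and both distal segments are higher in every ASO library.

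Within a library, the ratio of distal to upstream Thra counts was 3.26, 4.29, 1.66, 1.65 and 1.75 in CTRL and 15.7, 9.92, 24.8, 17.4 and 35.9 with the ASO. The groups did not overlap. The log2 ratio was higher by 3.03 on average with the ASO (two-sided exact permutation p = 0.0079, adjusted p = 0.011 over 4 ratios), where 45.7% of the 2273 genes also had every ASO library above every CTRL library. By size, the Thra shift was at the 94.2nd percentile of those genes. Its CTRL replicates 1 and 2, with the highest Thra ratios, are also those with the highest distal index. The part of this shift over many genes in the Thra result was not tested.

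**Figure D4:**
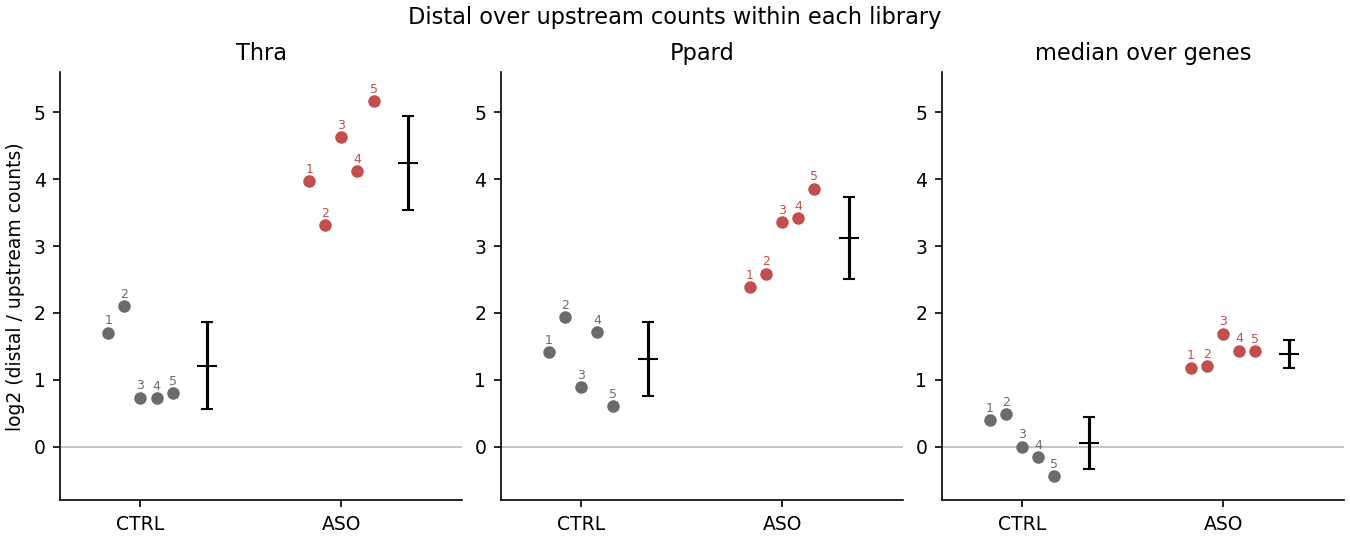
The y axis is the log2 ratio of distal to upstream counts within a library, for Thra, for Ppard and as the median over 1575 genes, with points numbered by replicate and the mean and SD of each group beside them. The ASO libraries lie above the CTRL libraries in all 3 panels, and the mean difference is 3.03 for Thra and 1.81 for Ppard.

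The distal Thra segment lies within Nr1d1, the gene of the clock repressor REV-ERBα, which is transcribed from the opposite strand, but it overlaps none of its exons. Nr1d1 was at 260 ± 40.5 CPM in CTRL and 368 ± 95.03 CPM in ASO libraries (SD, n = 5 each). It was higher by 0.50 on the log2 scale, which was not past the threshold (adjusted p = 0.070, edgeR's quasi-likelihood test). The ratio of distal Thra counts to Nr1d1 counts was between 0.251 and 0.430 in CTRL and between 0.315 and 0.598 with the ASO, and the groups overlapped (two-sided exact permutation p = 0.29, adjusted p = 0.29 over 4 ratios). The counting had no stated strand setting, so reads of unspliced Nr1d1 and of Thra cannot be told apart there.

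Levels of different receptors were compared per kb of their segments. In CTRL the order was Rxra at 196 ± 28.1 CPM per kb, Thra at 136 ± 26.4, Ppard at 106 ± 11.8, Esrrg at 29.4 ± 15.02 and Ppara at 15.6 ± 10.1 (SD, n = 5 each). With all segments in the length, neighbours overlapped in their ranges, except that every Ppard value was above every Esrrg value. With the ASO the same order held, at 247 ± 60.3, 162 ± 16.9, 124 ± 7.42, 10.8 ± 9.57 and 1.41 ± 1.08 CPM per kb (SD, n = 5 each). Only Rxra and Thra then overlapped as neighbours. The levels of Rxra and Esrrg are 583 and 88.2 CPM per kb in CTRL when only segments with a count enter the length. This leaves the order of the means as it was but changes which neighbours overlap. In CTRL, Esrrg (50.6 to 165 CPM per kb) then overlaps Ppard (95.5 to 121). Rxra no longer overlaps Thra there, and Esrrg no longer overlaps Ppara. With the ASO, no neighbours overlap by that length.

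Counted together, 0 of the 5 tested receptors were called higher by edgeR and 2 were called lower, where 11.8% of the 7813 genes tested were called higher and 17.4% lower. At an unadjusted p under 0.05 there were also 0 higher by edgeR and limma-voom, and 1 by DESeq2. After adjustment, DESeq2 and limma-voom called 0 higher and 2 lower. With 5 genes such a share is coarse, and it was not tested. The median log2 fold change of the 5 was 0.23, against −0.03 over all genes tested.

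Among the other 39 nuclear receptors, 16 could be tested and 14 were listed at 0. Of the 16, 6 were lower, 2 were higher and 8 were not called, with a median log2 fold change of −0.47, where 11.8% of all genes tested were called higher and 17.4% lower. Esrrb, Thrb and Rarb were among those lower. Esrrb, the third estrogen-related receptor, went from 12.0 ± 5.76 to 0.669 ± 1.27 CPM (means ± SD of 5 libraries, a log2 fold change of −3.98, adjusted p = 0.0022, edgeR's quasi-likelihood test). Its ASO mean is under the floor of 3 counts, and without ASO replicate 4 the fitted value was −6.10, so the size of this difference is not fixed. Thrb, the gene of thyroid hormone receptor β, went from 64.3 ± 11.2 to 38.8 ± 5.20 CPM (means ± SD of 5 libraries, a log2 fold change of −0.73, adjusted p = 0.0048 by edgeR), without overlap. Rarb, a retinoic acid receptor, went from 69.2 ± 19.0 to 39.4 ± 5.41 CPM (means ± SD of 5 libraries, a log2 fold change of −0.81, adjusted p = 0.0081 by edgeR). The steroid receptor genes Nr3c1, Nr3c2 and Esr1, for glucocorticoids, mineralocorticoids and estrogen, had log2 fold changes of −1.92, −1.85 and −0.44. Nr4a2, the one NR4A gene that could be tested, was at 3.30, 3.73, 12.4, 39.5 and 21.9 CPM in CTRL and 2.41, 3.82, 2.96, 10.9 and 5.66 CPM with the ASO (log2 fold change −1.61, adjusted p = 0.081, edgeR's quasi-likelihood test).

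The calls of these other receptors depended on which segments were counted. When only the most distal counted segment of each gene was used, 0 of the 13 with a p-value were called lower and 0 higher by edgeR. At an unadjusted p under 0.05 there were 1 lower and 0 higher. Over all genes that setting called 602 lower and 388 higher, against 1363 and 920 with the segments summed. Fewer calls were thus made over all genes as well. Nr3c1, Nr3c2 and Esrrb then had too few counts to be tested, and Thrb, Rarb and Esr1 had log2 fold changes of −0.24, −0.37 and 0.03, which turned the direction of Esr1. Leaving out 1 library ended the call of Esr1 in 7 of 10 cases. Ppara lacked a value under that setting, and Thra passed the threshold with a log2 fold change of 0.49 (adjusted p = 0.030, edgeR's quasi-likelihood test).

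**Figure D5:**
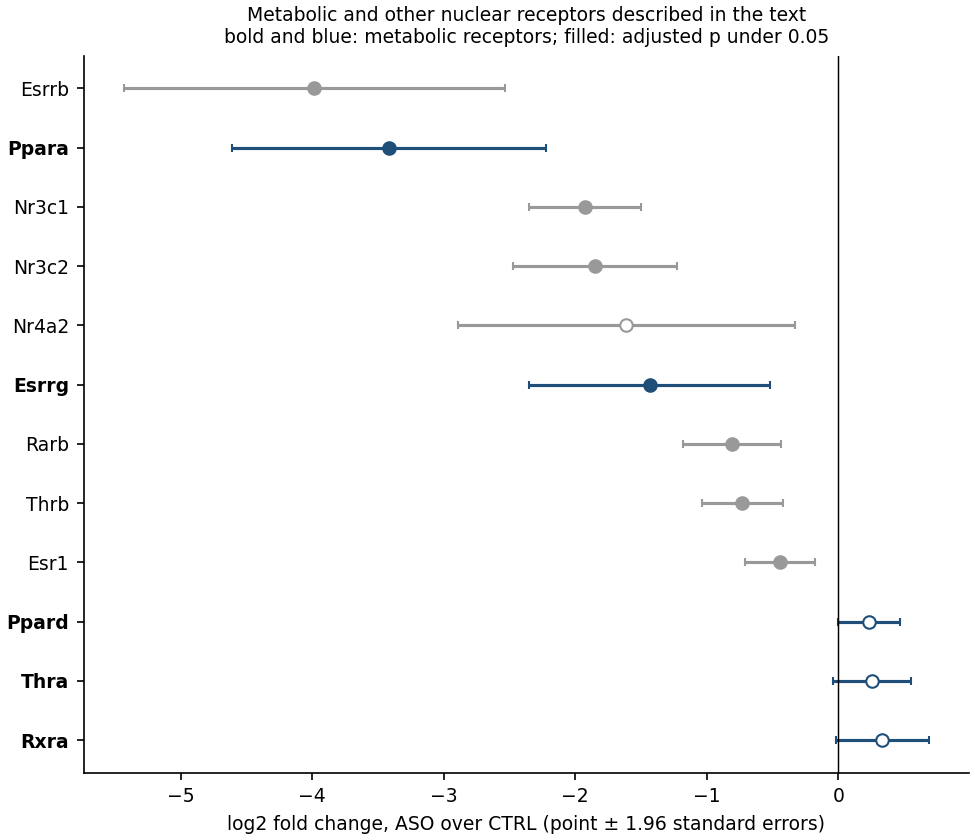
Points are log2 fold changes, ASO over CTRL, of the 5 measured metabolic receptors and of the 7 other nuclear receptors described by name, with 95% intervals as bars on a linear log2 axis. Metabolic receptors are blue with bold names, others are gray, and filled points have an adjusted p under 0.05 by edgeR, so Ppara at −3.41 and Esrrg at −1.43 are the filled blue points.

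Genes that these receptors are known to control were counted from lists written by hand. Of the 48 PPAR target genes, 36 were tested, 7 were lower and 1 was higher, with a median log2 fold change of −0.19. Over all genes tested, 17.4% were lower and 11.8% higher. Of the 7 lower, the 4 with the smallest adjusted p are given. Hadhb, a subunit of the mitochondrial trifunctional protein, had a log2 fold change of −2.15, Acadm, medium-chain acyl-CoA dehydrogenase, one of −1.15, Acsl1, which activates long-chain fatty acids, one of −1.11, and Slc22a5, the carnitine transporter, one of −1.02, each without overlap between the groups (adjusted p between 0.00020 and 0.0028, edgeR's quasi-likelihood test). Every ASO library was below every CTRL library in 13.4% of the 7813 genes tested, and these 4 targets were picked by their p-values. Acadm went from 1554 ± 370 to 702 ± 85.6 CPM (SD, n = 5 each). Pdk4 and Angptl4, which are often read as PPAR reporters, had log2 fold changes of 0.16 and −0.53 with adjusted p-values of 0.71 and 0.52 (edgeR's quasi-likelihood test) and were chosen after their values were seen. On the most distal segments alone, edgeR called 602 of all genes lower and 388 higher. Of the 29 targets tested there, 3 were lower and 0 higher by edgeR (8 and 1 at an unadjusted p under 0.05). Acadm was among the lower, Acsl1 and Slc22a5 were at −0.59 and −0.28 on the log2 scale and were not called, and Hadhb had too few counts.

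Target genes of estrogen-related receptors went both ways. Of 35, 25 were tested, 5 were higher and 2 lower, where 11.8% of all genes tested were called higher and 17.4% lower, and the median log2 fold change was 0.42. Acadm, which is on this list as well, was lower. Phb2, a mitochondrial prohibitin, rose by 0.75 on the log2 scale, Sod2, mitochondrial superoxide dismutase, by 0.82, and Sdhb, a subunit of succinate dehydrogenase, by 0.83 (adjusted p = 0.0070, 0.010 and 0.027, edgeR's quasi-likelihood test). The calls of Sod2 and Sdhb were lost on the most distal segments, at 0.60 for each. The number called higher depended on single libraries, from 2 without ASO replicate 3 or 5 or CTRL replicate 4 or 5 to 9 without CTRL replicate 1.

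In the thyroid hormone pathway, 15 of 22 genes were tested, 3 were higher and 0 were lower by edgeR, DESeq2 or limma-voom, also 0 at an unadjusted p under 0.05, with a median log2 fold change of 0.17. Over all genes tested, 11.8% were higher and 17.4% lower. Atp2a1, the fast-type calcium pump of the sarcoplasmic reticulum, went from 6555 ± 1129 to 13863 ± 3876 CPM (SD, n = 5 each) and so rose by 1.08 on the log2 scale. Slc2a4, the insulin-responsive glucose transporter, and Slc7a8, an amino acid and thyroid hormone transporter, had log2 fold changes of 0.51 and 0.75 (adjusted p = 0.022 and 0.043, edgeR's quasi-likelihood test). The hormone-inducible genes Klf9 and Thrsp had log2 fold changes of −0.18 and −0.45 and were not called, and they are named after their values were seen. Scaling by total counts alone left 1 gene of the list higher and 1 lower, as did the most distal segments, and neither setting called Slc2a4 or Slc7a8. On the most distal segments 13 genes of the list were tested, and 388 of all genes were called higher and 602 lower.

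The muscle target genes of NR4A receptors went both ways, with 5 higher and 4 lower of 16 tested from a list of 23, where 11.8% of all genes tested were called higher and 17.4% lower. Lpin1, a lipin that also acts as a coactivator of PPARα, had a log2 fold change of −1.50, Hdac11, a histone deacetylase, one of −1.05, and Gys1, muscle glycogen synthase, one of −0.79, while Pgam2, the muscle phosphoglycerate mutase, had one of 1.00 (adjusted p between 4.7e-04 and 0.0073, edgeR's quasi-likelihood test). On the most distal segments 0 of the 14 tested from the list were lower and 3 higher by edgeR, against 2 and 5 at an unadjusted p under 0.05. Of all genes, 602 were called lower and 388 higher under that setting. Immediate early genes, which are induced by the same signals as Nr4a1 and Nr4a3, had a median log2 fold change of −0.54. Egr1 and Btg1 were the 2 called lower among 16 tested (17.4% over all genes tested), at −1.90 and −1.23 (adjusted p = 0.029 and 0.033, edgeR's quasi-likelihood test), with overlap between the groups. Of this list, limma-voom called 1 lower, and DESeq2 called 5 lower and 1 higher among 26 genes with a p-value. The retinoid pathway, which makes and degrades the ligands of retinoid receptors, had 0 genes called in either direction by edgeR among 8 tested, with 1 higher and 0 lower at an unadjusted p under 0.05, while limma-voom called 0 and DESeq2 called 1 lower.

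Markers of the cell types in the muscle moved with the groups to differing degrees. Skeletal muscle fiber markers were higher in 5 of 9 tested genes (11.8% over all genes tested), and Ttn, Actn3 and Ckm had log2 fold changes of 1.41, 1.79 and 0.93, that of Ckm turning to −0.01 on the most distal segment. Macrophage markers were lower in 2 of 7 tested genes (0 by limma-voom, and 17.4% over all genes tested), with a summed level of 298 to 1874 CPM in CTRL and 81.6 to 627 CPM with the ASO, and Adgre1, Cd163 and Aif1 were listed at 0. Fibroblast markers were lower in 1 of 5, Lum, with sums of 439 to 1839 CPM and 176 to 836 CPM, and Dcn and Gsn were listed at 0. By edgeR, 0 of 12 tested adipocyte markers, 0 of 10 endothelial and 0 of 4 Schwann cell markers were called, as by DESeq2 and limma-voom, against 2, 0 and 0 at an unadjusted p under 0.05 by edgeR. Sums of the adipocyte markers were between 4072 and 25830 CPM in CTRL and between 4821 and 13158 CPM with the ASO, with Plin4 at 0. The part of these markers in the differences of Ppara and Esrrg was not tested.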

How the data were processed

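The authors used fastp for trimming, STAR for alignment to GRCm39 and featureCounts for counting read pairs on Gencode release M25 within the last 500 bp of 3′UTRs, per the study's methods. The values they deposited are unnormalized counts on 52423 segments, and no strand setting for the counting is given in the sources used here. Stranded libraries of poly(A) RNA from 10 mice were used, and 4 further columns of sample values were left out. The table also holds segment coordinates, which are 1-based on GRCm39.

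Transcripts were named with GENCODE release M39, which holds 52361 of the segments, and the other 62 hold 0.0197% of the counts. Segments were summed per gene and tested with edgeR 4.0.16 in R 4.3.3 (TMM, filterByExpr by group, quasi-likelihood test, Benjamini-Hochberg adjustment over 7813 genes, threshold 0.05), or over 10652 segments one by one. DESeq2 1.42.0, used by the authors, and voom from limma 3.58.1 served as alternatives, besides RLE, total-count and upper quartile scaling, no filter or at least 10 counts in every library, the most distal counted segment alone, a replicate block and leaving out each library. Each segment on its own and the distal ratios were added after seeing the data. Single values and ratios within a library (0.5 added to each count) were compared with two-sided exact permutation tests over 252 labellings. Intervals are nominal 95% intervals from the standard error by a normal approximation. They are narrower than the quasi-likelihood test implies and do not replace its p-values. Ratios and permutation tests ran in scipy 1.17.1 and numpy 2.4.6 under Python 3.11.15, tables in pandas 2.3.3 and figures in matplotlib 3.10.9.

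The 10 receptors and all gene lists were chosen with earlier results of these data known, so the lists are described by counts and no list was tested. Named genes are the receptors, Ppargc1a, Esrra, Nr1d1, genes over a receptor's segment, up to 4 members of each list with the smallest adjusted p past the threshold and all other nuclear receptors past it. Some genes that this rule names are not reported here. Replicate numbers did not pair the samples. The labels give separate mice by replicate number only, so p-values measure the spread between these samples. Floors cover counting error only.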

Additional observations from a re-analysis of the deposited data

Results flagged for a closer look

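Among 26 groups of 5 libraries compared on the levels of receptors and their segments, 1 library stood apart by the ratio of its gap to the group's range, ASO replicate 4 for Esrrg at 41.7 CPM, with the next ASO library at 12.3 CPM. Chance alone would single out about 5% of such groups. The same library was the highest of its group in Myh7 and Myl2.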

How the results depend on the processing

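Ppara was called lower in every alternative that gave a value, with log2 fold changes of −3.58 to −3.19 and, leaving out each library, −3.89 to −3.07. It could not be fitted with at least 10 counts in every library or on the most distal segment alone, so each of these settings left 1 receptor lower. The ratio of Ppara to Ppard gave p = 0.0079 or, leaving out each library, 0.016 by the exact test. Esrrg was lower in all 9 other settings, at −1.65 to −1.35, and leaving out each library gave −2.14 to −1.07, with 1 to 2 receptors lower. The −1.65 is from the most distal segment alone. All Esrrg counts lie on 1 segment, so that setting used the same counts among other genes and could not show whether the segment matters. Thra passed the threshold only on the most distal segment, at 0.49, which made 1 receptor higher. Ppard was at 0.34 there and was not called. Segments fitted alone gave −2.32 and 0.77 for Thra and −1.20 and 0.61 for Ppard. Ppargc1a turned positive with upper quartile scaling (0.048) and DESeq2 (0.0020) and ranged from −0.15 to 0.10 leaving out each library (0.06, 0.05, 0.10 and 0.02 without ASO replicates 1 and 2 and CTRL replicates 1 and 2). On the most distal segment Ckm turned to −0.011 and Esr1 to 0.029. With the replicate block, Ppara was at −3.37 and Esrrg at −1.58, and no receptor's call changed. Same-numbered libraries correlated between −0.42 and 0.15, and 0 of 5 pairs matched best with their own number, so the pairing was not used. Over all genes, total counts alone gave 528 higher, and the most distal segments 388 higher and 602 lower. Among the genes of the lists, leaving out 1 library ended the call of Egr1 (ASO replicates 1, 2 and 3, CTRL 3 and 5, −1.79 to −1.49), Btg1 (ASO 1, 3, 4 and 5, CTRL 2 and 3, −1.30 to −0.85), Mrc1 (ASO 1, 2, 3 and 5, CTRL 3, 4 and 5, −1.57 to −0.92), C1qc (ASO 1, 3, 4 and 5, CTRL 3, 4 and 5, −1.74 to −1.04), Esr1 (ASO 1, 3, 4 and 5, CTRL 2, 4 and 5, −0.45 to −0.33), Slc7a8 (ASO 1, 2, 3 and 5, CTRL 1, 4 and 5, 0.60 to 0.78), Sdhb (ASO 3 and 5, CTRL 2 to 5, 0.71 to 0.82) and Slc2a4 (CTRL 5, 0.47). Esrrb kept its call and ranged from −6.10 (without ASO replicate 4) to −3.64. The causes were not tested. Depth limits Ppara, at 2 to 11 counts per ASO library.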

Other observations

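Coregulators of nuclear receptors went both ways. Of 25 coactivators, 20 were tested, 3 were higher and 4 lower, where 11.8% of all genes tested were called higher and 17.4% lower, with a median log2 fold change of −0.05 that became 0.03 with upper quartile scaling. The 4 lower were Ncoa4, Ncoa2, Lpin1 and Med1, with log2 fold changes of −2.19, −2.13, −1.50 and −1.48 (adjusted p between 4.7e-04 and 0.0026, edgeR's quasi-likelihood test), each without overlap between the groups. Over all 7813 genes tested, 13.4% had every ASO library below every CTRL library. Ncoa2 is a p160 coactivator that binds hormone-occupied receptors, and Med1 is the Mediator subunit that contacts them, among them PPARs and thyroid hormone receptors. The mean of Ncoa2 was 17.3 ± 6.66 CPM in the CTRL libraries against 3.91 ± 0.690 CPM in the ASO libraries (SD, n = 5 each). On the most distal counted segment alone, 0 of the 16 coactivators tested were called lower by edgeR (also 0 at an unadjusted p under 0.05), where 602 of all genes were. Ncoa4, Ncoa2, Lpin1 and Med1 had too few counts on that segment to be tested.

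Of 21 corepressors, 17 were tested, 4 were higher and 2 lower, where the same shares hold over all genes tested (11.8% and 17.4%), with a median log2 fold change of 0.09 that became −0.09 with total counts alone. Gps2, a subunit of the NCoR and SMRT complexes, and Sin3b, a scaffold of histone deacetylase complexes, had log2 fold changes of 1.08 and 0.77, and Lcor, a ligand-dependent corepressor, and Rcor1, the CoREST scaffold, ones of −2.96 and −0.85 (adjusted p between 0.0011 and 0.0036, edgeR's quasi-likelihood test). On the most distal counted segment alone, 4 of the 15 corepressors tested were higher and 0 lower by edgeR (6 and 1 at an unadjusted p under 0.05). Of all genes, 388 were called higher and 602 lower under that setting. Rcor1 was at −0.21 there and was not called, and Lcor had too few counts. Ncor1, the main NCoR gene of muscle, was at 116 CPM in CTRL and 133 CPM with the ASO and was not called (adjusted p = 0.27, edgeR's quasi-likelihood test), and it is named after its values were seen.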
